A study of Saccharomyces cerevisiae with 6 samples.

Results

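The 10 genes described here are short C/D box small nucleolar RNA (snoRNA) genes of budding yeast that are each transcribed from a promoter of their own: *SNR13*, *SNR40*, *SNR47*, *SNR50*, *SNR58*, *SNR66*, *SNR68*, *SNR69*, *SNR79* and *SNR87*. They were taken as a list of gene names, the rule uses no measured level although earlier results of these data were known when the list was made, and all 10 are among the 6277 genes of the deposited table. The study asked how the nuclear RNA exosome and its helicase-polymerase cofactor TRAMP choose and degrade RNA, and ribosome-depleted total RNA was sequenced from 3 strains with 2 separately selected clones each. All strains had a BY4741/4743 background and deletions of *RRP6* and *MTR4*, and *MTR4* was supplied on both pRS416 and pRS415. They differed only in pRS413, which was empty in rrp6Δ, carried *RRP6* with the D238N substitution in Rrp6exo- and carried unaltered *RRP6* in WT. WT is therefore a plasmid-complemented deletion strain and not a cell with chromosomal *RRP6*. Cells were harvested in mid-log phase from medium that selects for all the plasmids.

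C/D snoRNAs pair with ribosomal RNA (rRNA) next to their D or D′ box and place the methyltransferase Nop1 at a defined nucleotide, which becomes 2′-O-methylated. Box C and box D fold together and are bound by Snu13, Nop56, Nop58 and Nop1, which protect the ends of the mature RNA. Genes with their own promoter are transcribed by RNA polymerase II past the mature 3′ end, terminated by the Nrd1-Nab3-Sen1 complex, and trimmed back by the nuclear exosome. Rrp6 is the exosome's nuclear, distributive 3′ to 5′ exoribonuclease, and D238N inactivates its active site while the protein can still be present.

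The gene sequences of 7 members, those with the highest counts and those whose levels differed between strains, are given below to show which rRNA each guide matches. They were read from the R64 genome (RefSeq annotation) on the strand of the gene. Capitals mark the longest run of base pairs with the rRNA, G-U pairs included, that covers the nucleotide annotated as the target.
snR13: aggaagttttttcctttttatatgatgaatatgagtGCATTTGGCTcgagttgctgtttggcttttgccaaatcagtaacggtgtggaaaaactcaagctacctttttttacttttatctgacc
snR66: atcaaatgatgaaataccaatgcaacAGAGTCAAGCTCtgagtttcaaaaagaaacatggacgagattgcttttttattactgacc
snR58: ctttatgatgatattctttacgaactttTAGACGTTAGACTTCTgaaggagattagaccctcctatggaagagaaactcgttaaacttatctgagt
snR47: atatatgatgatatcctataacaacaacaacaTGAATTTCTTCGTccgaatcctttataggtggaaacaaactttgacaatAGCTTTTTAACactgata
snR50: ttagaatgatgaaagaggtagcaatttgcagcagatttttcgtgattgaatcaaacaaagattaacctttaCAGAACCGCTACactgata
snR69: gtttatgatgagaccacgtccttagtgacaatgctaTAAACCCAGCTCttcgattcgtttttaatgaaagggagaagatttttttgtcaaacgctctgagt
snR40: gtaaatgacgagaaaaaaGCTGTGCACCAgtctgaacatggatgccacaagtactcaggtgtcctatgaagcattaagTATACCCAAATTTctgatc

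The members lie on 6 chromosomes, are 84 to 136 nt long and overlap no other annotated gene. snR13 is at chrIV:1402919-1403042 on the plus strand, snR66 at chrXIV:586090-586175 on the plus strand, snR58 at chrXV:136088-136183 on the minus strand and snR47 at chrIV:541602-541700 on the minus strand. snR50 is at chrXV:259489-259578, snR69 at chrXI:364776-364876 and snR40 at chrXIV:89210-89306, all on the plus strand. The label of the family held in sequence: a C box (ATGATGA) was exact in 9 members, with 1 mismatch in snR40, and a D box (CTGA) was exact in all 10. Whether each gene has its own start site was not measured by these counts.

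The annotation gives the members 13 rRNA target nucleotides, 9 in large-subunit and 4 in small-subunit rRNA, counted from the 5′ end of each rRNA. A duplex of at least 11 bp covered 10 of the 13, where the pairing was not stopped at a box. snR58 had the longest, 16 bp over C663, and snR66 paired over U2417 and snR69 over C2948 with 12 bp each, all in large-subunit rRNA. snR47 paired with A2220 of large-subunit rRNA over 13 bp and with A619 of small-subunit rRNA over 11 bp, and snR40 with U898 and G1271 in the same way over 13 and 11 bp. snR13 guides the adjacent A2280 and A2281 and matched them over 10 bp, and snR50 matched G867 over 12 bp. snR68 guides A2640 (12 bp), whereas snR79 and snR87 guide small-subunit C1007 (11 bp) and A436 (9 bp). The 11 bp of snR79 include its D box. At 9 of the 13 sites a CTGA box with at most 1 mismatch began 5 nt after the paired nucleotide, the usual spacing of a C/D guide. snR13 and snR69 were among those without such a box at that place.

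The values are scaled counts, which the authors made by dividing the reads counted on each gene by a DESeq size factor for the library. Multiplying back gave 34.2 to 39.5 M reads per library, with 100% of values whole within 0.01 read. *RRP6* itself had 4 and 9 reads in rrp6Δ, against at least 19083 reads in every library of Rrp6exo- and WT (log2 fold change of rrp6Δ over WT fell by 11.53, limma adjusted p = 0.000129), and *MTR4* did not pass the test in any comparison. Of the mating-type genes, the α-cell gene *STE3* averaged 23488, 21479 and 23244 in rrp6Δ, Rrp6exo- and WT, and the a-cell gene *STE2* averaged 366, 373 and 380, so the clones of the 3 strains had the same mating-type pattern. Tests used limma on log2(scaled count + 1) with Benjamini-Hochberg adjustment over all 6277 genes and a threshold of 0.05. Replicate numbers were read as pairing the libraries across strains, from the library names and from correlated replicate differences in these same data. A second fit therefore had the number as a term (the blocked fit), and its value is given where it changes the call.

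The libraries of rrp6Δ differed from each other for these genes. rrp6Δ replicate 2 was above replicate 1 for 9 of the 10 members, with a median ratio of 1.81, whereas the median over all genes was 0.994. The polycistronic C/D snoRNAs shifted likewise (11 of 11, median ratio 1.66), and the H/ACA snoRNAs, which guide pseudouridylation, had a median ratio of 1.04 (above in 21 of 29). In Rrp6exo- replicate 2 was above replicate 1 for 4 of 10 members (median ratio 0.997), and in WT for 8 of 10 (median ratio 1.23). The paper gives RNA integrity as a range over the samples, and it was not used here. The role of this shift in the results for rrp6Δ was not tested, and values without rrp6Δ replicate 2 are given where they matter.

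The members differed widely in level. Per 100 nt of gene, the mean scaled counts in rrp6Δ ran from 52975 for snR13 through 13698 for snR40, 2138 for snR66, 301 for snR50, 235 for snR69, 91.2 for snR47, 37.0 for snR58, 20.1 for snR79 and 13.0 for snR68 to 4.89 for snR87. The order in Rrp6exo- was snR13 (49299), snR40 (10999), snR66 (1270), snR69 (162), snR47 (110), snR50 (42.3), snR58 (20.4), snR68 (5.63), snR87 (1.43) and snR79, which had no read. In WT the order was snR13 (20722), snR40 (10946), snR69 (908), snR66 (197), snR50 (68.0), snR47 (23.8), snR68 (3.72), snR79 (3.71), snR87 (1.40) and snR58 (0.512). snR58 was thus the lowest in WT and the seventh in both mutants, and snR66 stood above snR69 in both mutants and below it in WT. Neighbours in the order whose libraries overlapped were snR50 with snR69 and snR79 with snR58, snR68 and snR87 in rrp6Δ, snR87 with snR68 and snR79 in Rrp6exo-, and in WT snR50 with snR47, snR79 with snR68, snR87 and snR58, and snR87 with snR58. Together the members took 0.197% and 0.259% of the reads in rrp6Δ, 0.203% and 0.194% in Rrp6exo- and 0.0877% and 0.100% in WT, and snR13 alone made up 66.8% to 85.4% of the members' reads in each library.

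**Figure D1:**
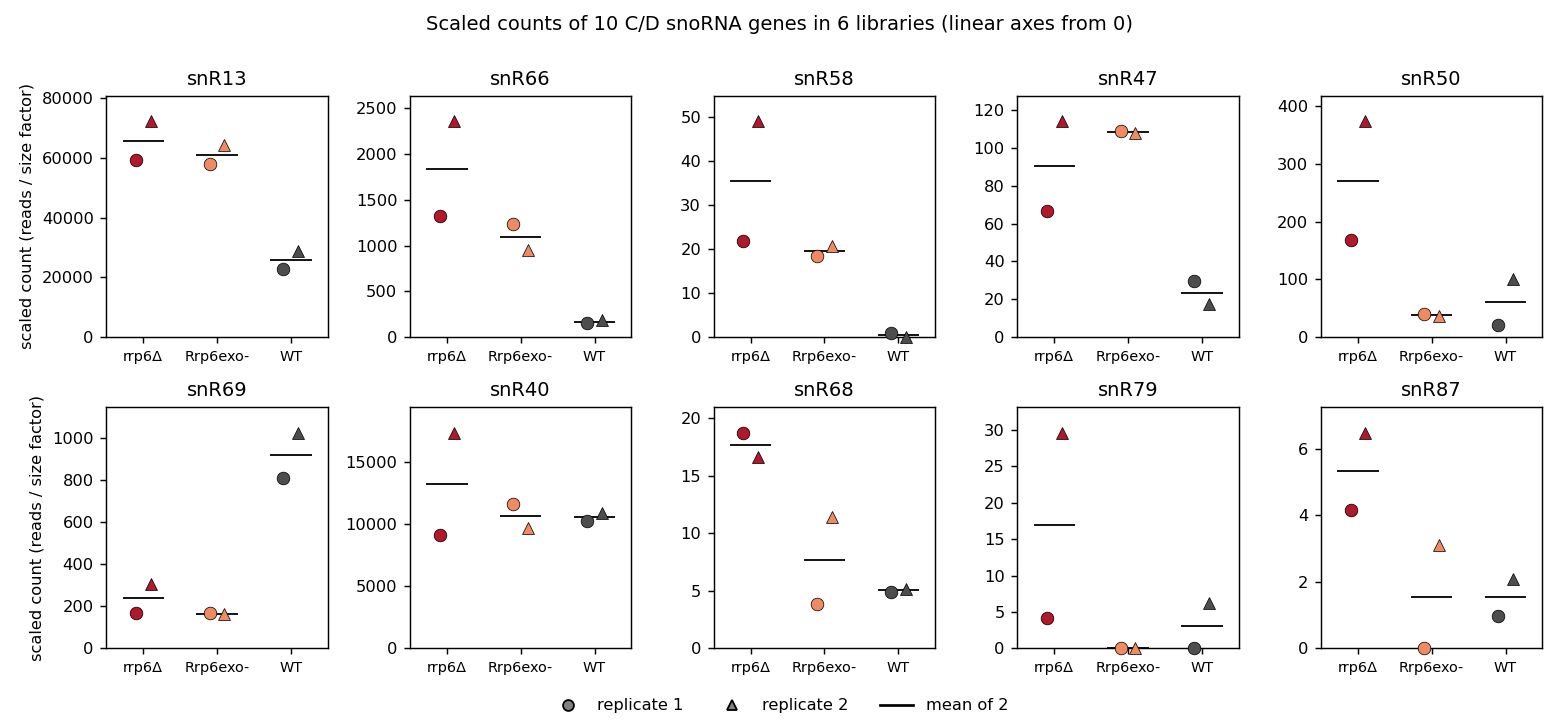
Scaled counts of the 10 members in each library, 1 panel per gene with its own linear axis from 0, points for the libraries (circle replicate 1, triangle replicate 2) and a line for the mean of 2. For snR13, snR66, snR58 and snR47 all 4 mutant libraries lie above both WT libraries, for snR69 all 4 lie below, and for snR50 both rrp6Δ libraries lie above the other 4.

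snR13 was the most abundant member in every library and was higher in both mutants. It had 59190 and 72189 scaled counts in rrp6Δ, 57792 and 64469 in Rrp6exo-, and 22713 and 28678 in WT. The mutant libraries all lay above the WT libraries, and those of the mutants overlapped each other. The log2 fold change was 1.36 ± 0.16 (SE) in rrp6Δ over WT and 1.26 ± 0.16 in Rrp6exo- over WT, a linear fold of 2.56 and 2.39. In limma these missed the threshold (adjusted p = 0.0567 and 0.0561) and passed it in the blocked fit (limma adjusted p = 0.000535 and 0.000806). Without the block, DESeq2 on the recovered reads called both (adjusted p = 3.99e-12 and 2.42e-10). edgeR without the block called neither (adjusted p = 0.0611 and 0.0577). Between the mutants the difference was 0.10 with a 95% interval of -0.285 to 0.482 (rrp6Δ over Rrp6exo-). As in any bulk RNA sample, more cells making an RNA and more of it per cell cannot be told apart.

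snR66 was higher in both mutants and by a larger fold than snR13. It measured 1319 and 2358 scaled counts in rrp6Δ, 1235 and 950 in Rrp6exo-, and 153 and 185 in WT. No library of a mutant came near the WT range, and the rrp6Δ libraries lay above those of Rrp6exo-. It ranked 5 of 6277 genes by rise in rrp6Δ over WT, with a log2 fold change of 3.38 ± 0.30 (limma adjusted p = 0.034). It was the only member called by limma without the block on the deposited scaling. That call was lost without rrp6Δ replicate 2 (limma adjusted p = 0.0917), without Rrp6exo- replicate 1 or 2 (0.0939 and 0.0933) and without WT replicate 1 or 2 (0.136 and 0.125), while its log2 fold change stayed between 2.96 and 3.80. In Rrp6exo- over WT the log2 fold change was 2.68 ± 0.30 (limma adjusted p = 0.0561, and 0.0015 in the blocked fit). There DESeq2 without the block called snR66 (adjusted p = 1.08e-13), and edgeR without the block did not (adjusted p = 0.0577).

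snR58, the guide with the longest rRNA duplex, was near the limit of detection in WT and was found in all mutant libraries. It had 21 and 53 reads in rrp6Δ, 19 and 20 in Rrp6exo-, and 1 and 0 in WT. The ratio of summed reads, corrected for the size factors, was 71.8 in rrp6Δ over WT (exact 95% interval 12.5 to 2880) and 38.8 in Rrp6exo- over WT (6.56 to 1570), intervals that cover counting error only. The fitted log2 fold changes were 4.59 ± 0.55 and 3.87 ± 0.55 and depend on the added count of 1. They ranked 2 and 1 of 6277 genes by rise. limma gave adjusted p = 0.0603 in rrp6Δ and 0.0696 in Rrp6exo-, and 0.00756 and 0.00972 in the blocked fit. The standard error of snR58 was 0.55 without the block and 0.57 with it, so the lower adjusted p did not come with a narrower estimate. DESeq2 without the block called snR58 in both mutants (adjusted p = 0.00476 and 0.021). edgeR without the block called it in neither (adjusted p = 0.103 and 0.124).

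snR47, which guides a nucleotide in each ribosomal subunit, was higher in both mutants at a low level. It had 66.7 and 113.9 scaled counts in rrp6Δ, 108.8 and 108.0 in Rrp6exo-, and 29.5 and 17.7 in WT. The mutant libraries did not overlap those of WT. The log2 fold change was 1.89 ± 0.37 in rrp6Δ over WT (limma adjusted p = 0.135, and 0.0208 in the blocked fit). It was 2.20 ± 0.37 in Rrp6exo- over WT (limma adjusted p = 0.0875, and 0.0121 in the blocked fit). The standard error in the blocked fit was 0.34. DESeq2 without the block called snR47 in both mutants (adjusted p = 0.00286 and 0.000376). edgeR without the block called it in neither (adjusted p = 0.14 and 0.0969). snR47 was the only member with a lower mean in rrp6Δ than in Rrp6exo-, by a log2 difference of -0.31 (95% interval -1.216 to 0.594). From browser tracks the paper describes it as low in both WT and Rrp6exo- and more abundant in rrp6Δ. The counts for Rrp6exo- differ from that description, and the reason was not tested.

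snR50 was higher in rrp6Δ, whereas the Rrp6exo- libraries lay within the WT range. It had 167.8 and 373.2 scaled counts in rrp6Δ, 39.8 and 36.4 in Rrp6exo-, and 21.6 and 100.9 in WT. Both rrp6Δ libraries were above all others, and the WT libraries, which differed 4.67-fold, enclosed those of Rrp6exo-. The log2 fold change in rrp6Δ over WT was 2.39 ± 0.75 (limma adjusted p = 0.213, and 0.023 in the blocked fit), and in Rrp6exo- over WT it was -0.30 ± 0.75 (limma adjusted p = 0.887). The first of these was 1.30 without WT replicate 1 and 3.47 without WT replicate 2. Between the mutants, rrp6Δ over Rrp6exo-, it was 2.69 with a 95% interval of 0.842 to 4.53. That difference did not pass in limma over all genes (adjusted p = 0.876, and 0.106 in the blocked fit) and passed in DESeq2 on the recovered reads (adjusted p = 0.03). snR50 was the only member called between the mutants by any of the fits run. In rrp6Δ over WT, DESeq2 did not call snR50 (adjusted p = 0.0506).

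snR69 was the only member called lower in either mutant, and it was lower in both. It had 166.7 and 307.4 scaled counts in rrp6Δ, 166.1 and 162.0 in Rrp6exo-, and 810.4 and 1023.1 in WT. All 4 mutant libraries lay below those of WT. Its log2 fold change came to -2.00 ± 0.31 in rrp6Δ over WT (limma adjusted p = 0.1, and 0.00377 in the blocked fit). In Rrp6exo- over WT it was -2.47 ± 0.31 (limma adjusted p = 0.0561, and 0.00129 in the blocked fit). DESeq2 without the block called both (adjusted p = 8.41e-07 and 6.32e-11), and edgeR without the block called neither (adjusted p = 0.103 and 0.058). By size of change snR69 was among the lowest of all genes, at rank 6272 and 6274 of 6277 by rise. The paper instead describes its level as similar across the strains, with 3′ extensions where Rrp6 or its activity is missing. The reason for this difference was not tested.

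snR40, the second most abundant member, showed no difference that passed a test. It had 9179 and 17395 scaled counts in rrp6Δ, 11607 and 9732 in Rrp6exo-, and 10293 and 10941 in WT. rrp6Δ replicate 2 was the highest library and replicate 1 the lowest. The log2 fold change was 0.25 in rrp6Δ over WT (95% interval -0.464 to 0.968, limma adjusted p = 0.728) and 0.00 in Rrp6exo- over WT (-0.714 to 0.718, adjusted p = 0.997). Without rrp6Δ replicate 2 the first of these turned to -0.21.

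The remaining 3 members had few reads and none was called. snR68 had 18 and 18 reads in rrp6Δ, 4 and 11 in Rrp6exo-, and 5 and 5 in WT, and its ratio of summed reads was 3.49 in rrp6Δ over WT (exact 95% interval 1.7 to 7.9) and 1.49 in Rrp6exo- over WT (0.627 to 3.71). Its log2 fold change in rrp6Δ over WT was 1.63 ± 0.52 (limma adjusted p = 0.215, and 0.0794 in the blocked fit).
snR79 had 4 and 32 reads in rrp6Δ, none in Rrp6exo-, and 0 and 6 in WT. Its summed reads in rrp6Δ were 11.7-fold above a floor of 3 reads over the Rrp6exo- strain, but 32 of its 36 reads came from rrp6Δ replicate 2. This ratio is thus not a lower bound that holds for both libraries. Its ratio of rrp6Δ over WT was 5.82 (2.43 to 16.9).
snR87 had 4 and 7 reads in rrp6Δ, 0 and 3 in Rrp6exo-, and 1 and 2 in WT, a ratio of 3.56 in rrp6Δ over WT with an interval of 0.94 to 19.9 that includes no change. At this depth a difference between Rrp6exo- and WT in snR87 was not detectable (ratio 0.994, interval 0.133 to 7.42).

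**Figure D2:**
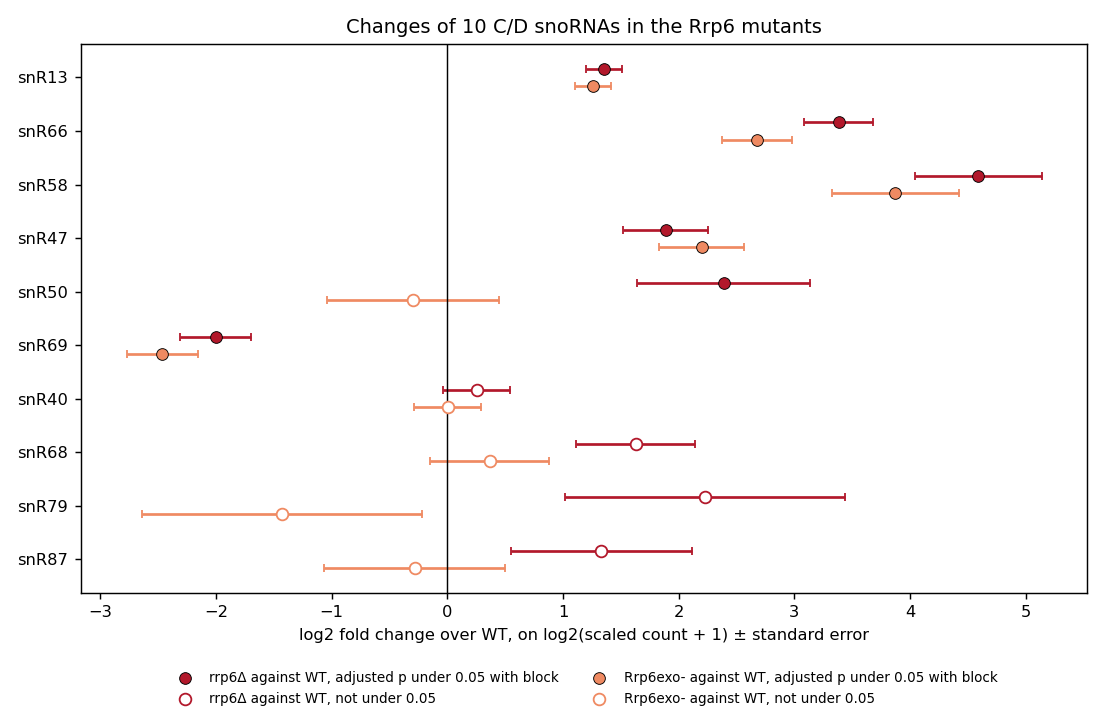
Log2 fold change over WT of each member in rrp6Δ (dark red) and Rrp6exo- (orange), with the standard error of the limma fit, filled where the adjusted p of the blocked fit is under 0.05. snR13, snR66, snR58 and snR47 lie to the right of 0 and snR69 to the left in both mutants, and snR50 lies at 2.39 in rrp6Δ and -0.30 in Rrp6exo-.

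Counted over the family, limma without the block called 1 of 10 members in rrp6Δ over WT, beside 0.175% of all genes, and 0 of 10 in Rrp6exo- over WT, beside 0.112%. At an unadjusted limma p under 0.05 there were 7 and 5 members, beside 16.6% and 17% of all genes. With the block, limma called 6 members in rrp6Δ over WT (5 higher and 1 lower) beside 11.5% of all genes, or 5.43% higher and 6.04% lower. It called 5 in Rrp6exo- over WT (4 higher and 1 lower) beside 12.7%, or 5.7% higher and 7.04% lower. On the recovered reads, edgeR with the block called 6 and 5 members beside 11.4% and 12.7% of all genes. Without the block, edgeR called 1 and 0 members beside 11 and 6 of 6277 genes. DESeq2, also run without the block, called 5 and 5 members beside 8.19% and 8.45%. Both rrp6Δ libraries were above both WT libraries for 7 members and below for 1, beside 25.1% and 24.9% of all genes. Both Rrp6exo- libraries were above for 4 and below for 1, beside 21.7% and 23.5%. The median log2 fold change of the members was 1.76 in rrp6Δ over WT and 0.18 in Rrp6exo- over WT, against 0.0053 and 0.0107 over all genes. The first median was 1.36 without rrp6Δ replicate 2, 1.25 without WT replicate 1 and 1.13 with a pseudocount of 10, its lowest value in the settings run. The second ran from -0.05 without Rrp6exo- replicate 2 to 0.89 without Rrp6exo- replicate 1, and was 0.81 over the 8 members with a mean of at least 10. Both comparisons use the same WT libraries, so the 2 sets of values are not independent.

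In the direct comparison of the mutants, rrp6Δ over Rrp6exo-, no member passed in limma, beside 0.0159% of all genes, or in the blocked fit, beside 0.0319%. The limma p unadjusted was under 0.05 for 2 members, snR50 and snR79, beside 5.46% of all genes, and DESeq2 called snR50 alone, beside 0.717% of all genes. Both rrp6Δ libraries were above both Rrp6exo- libraries for 7 members and below for none, beside 17.3% and 15.9% of all genes, and the median log2 difference was 0.71, against 0.0029 over all genes. For every member except snR68 and snR87 the signed difference was higher within replicate 2, and for snR47 and snR40 it was negative within replicate 1. Within replicate 1 the log2 difference was 0.10 for snR66, 0.23 for snR58 and 0.01 for snR69, and within replicate 2 it was 1.31, 1.20 and 0.92. snR50 was higher in both, by 2.05 within replicate 1 and 3.32 within replicate 2. Without rrp6Δ replicate 2 the median difference was 0.22, and without rrp6Δ replicate 1 it was 1.15.

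**Figure D3:**
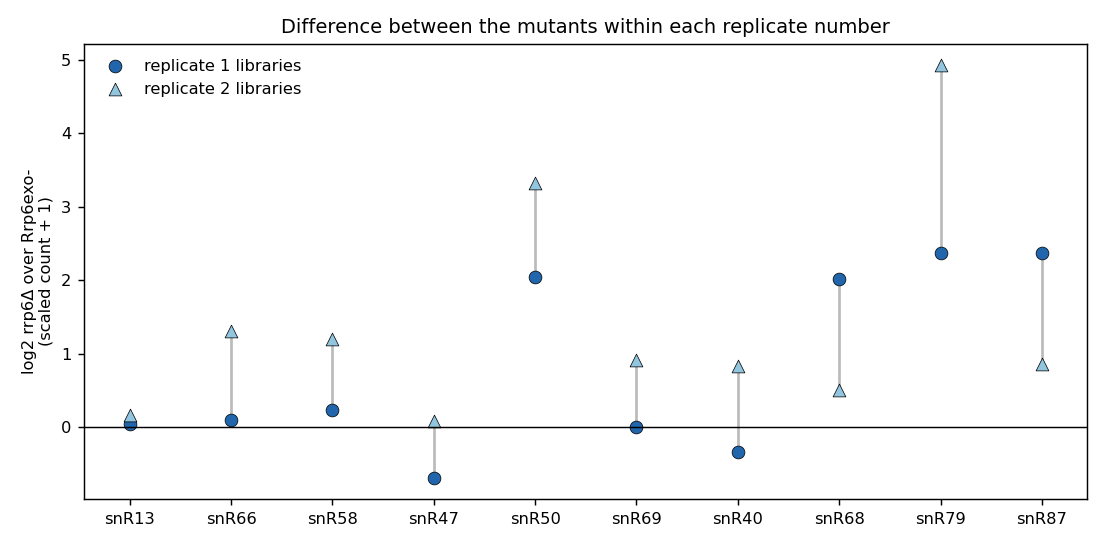
Log2 of rrp6Δ over Rrp6exo- on scaled count + 1 for each member, computed within replicate 1 (circles) and within replicate 2 (triangles), with a grey line joining the 2 values. snR13 lies close to 0 in both, snR50 above 2 in both, and snR66, snR58 and snR69 lie near 0 in replicate 1 only.

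Other classes of snoRNA are given beside the family as a description, and the difference between classes was not tested. The 11 of 17 listed polycistronic C/D snoRNAs that were measured had a median log2 fold change of 2.20 in rrp6Δ over WT and 1.07 in Rrp6exo- over WT. In the blocked fit 6 of them were higher in rrp6Δ, and 3 were higher and 2 lower in Rrp6exo-. snR73 was called in both without the block (log2 fold change 3.64 and 3.15, limma adjusted p = 0.0123 and 0.0398). The 29 H/ACA snoRNAs had medians of -0.03 and -0.24, and in the blocked fit 8 were higher and 6 lower in rrp6Δ, while in Rrp6exo- 4 were higher and 7 lower. Another 4 C/D genes with their own promoter (snR39B, snR60, snR63 and snR64) had medians of 0.89 and 0.18 and no call in either fit. This list was added after the table was seen and may not hold all such genes.

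**Figure D4:**
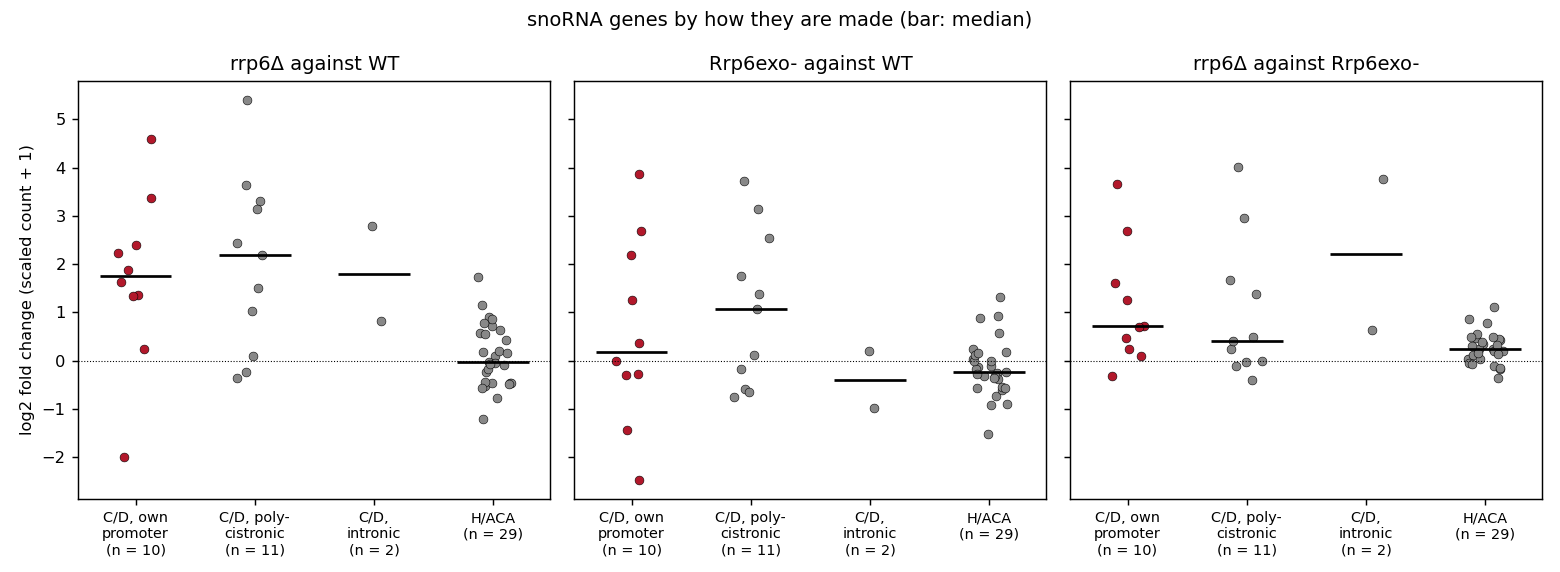
Log2 fold changes of snoRNA genes in the 3 comparisons, grouped as C/D genes with their own promoter (red), polycistronic C/D, intronic C/D and H/ACA genes (grey), each point a gene and each bar the median. In rrp6Δ against WT the medians of the first 2 groups are 1.76 and 2.20, and that of the H/ACA genes is -0.03.

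For the 6 members called in either fit, the 3 genes with the most similar profile over the 6 libraries were found by root mean square distance on the log2 scale, each profile centred on its WT mean, among genes with a mean of at least 50. snR66 lay nearest to snR73 (0.339), snR72 (0.562) and *YDR199W* (0.6), and the same 3 genes were nearest to snR58 at larger distances (0.748, 1.52 and 1.53). snR50 lay nearest to snR67 (0.329), a polycistronic C/D snoRNA, whose log2 fold changes were 2.20 in rrp6Δ and -0.76 in Rrp6exo-, and then to the mitochondrial intron genes *BI4* (0.494) and *AI3* (0.615). snR69 lay nearest to *GYP5* (0.295), *CYB2* (0.363), which encodes a lactate dehydrogenase, and *PHO5* (0.447), which encodes a secreted acid phosphatase. snR13 lay nearest to *YOR041C* (0.117), *YLL047W* (0.146) and *MND1* (0.156), and snR47 to *YGL109W* (0.248), *YGL182C* (0.338) and *YHL019W-A* (0.36).

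A transcript that runs past a snoRNA would enter the next gene on its strand, so the genes downstream of the members were examined. Counts per gene do not show where a transcript began. Whether any change in a downstream gene came from such a transcript was not tested. Of the nearest downstream genes, 9 lay on the strand of their snoRNA, at 148 to 996 nt. In the blocked fit 4 of the 9 were higher in rrp6Δ over WT, beside 5.43% of all genes, and 3 of the 9 in Rrp6exo- over WT, beside 5.7%, and none was lower. *YDR042C*, an open reading frame that begins 398 nt after snR47, was called in both mutants. It had 1109 and 1060 scaled counts in rrp6Δ, 951 and 1115 in Rrp6exo-, and 361 and 297 in WT, with no overlap between mutants and WT. Its log2 fold change was 1.72 ± 0.15 in rrp6Δ over WT and 1.65 ± 0.15 in Rrp6exo- over WT, and it passed without the block (limma adjusted p = 0.034 and 0.0451). Leaving out any 1 library ended the calls (limma adjusted p from 0.0854 to 0.319 in rrp6Δ and 0.116 to 0.193 in Rrp6exo-), while the log2 fold change stayed between 1.51 and 1.86.

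The other downstream genes that rose in the blocked fit were smaller in effect. *FLX1*, a mitochondrial flavin transporter gene 148 nt after snR68, had 1493 and 1125 scaled counts in rrp6Δ, 1168 and 1227 in Rrp6exo-, and 835 and 736 in WT (log2 fold change 0.73 and 0.61, limma adjusted p = 0.0178 and 0.0223 in the blocked fit). *RGT1*, a glucose-responsive repressor gene 728 nt after snR69, had 8282 and 8622 scaled counts in rrp6Δ, 9705 and 10593 in Rrp6exo-, and 5646 and 6369 in WT. It thus rose (log2 fold change 0.50 and 0.76, limma adjusted p = 0.0089 and 0.00134 in the blocked fit) beside a snoRNA that fell. *SFT1*, a Golgi SNARE gene 397 nt after snR87, rose in rrp6Δ only by this threshold (log2 fold change 0.67, limma adjusted p = 0.0296 in the blocked fit) and had a log2 fold change of 0.45 in Rrp6exo- (0.0758). Limma without the block called none of these genes. DESeq2 without the block called *FLX1* (adjusted p = 0.00356 and 0.0234) and *RGT1* (0.000484 and 2.12e-09) in both mutants. It called *SFT1* in rrp6Δ (adjusted p = 0.00965) and not in Rrp6exo- (0.148). *TRS31*, 279 nt after the abundant snR13, had log2 fold changes of -0.17 and -0.07 and was not called (limma adjusted p = 0.183 and 0.587 in the blocked fit). The genes after snR58, snR50, snR40 and snR79 were not called either.

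**Figure D5:**
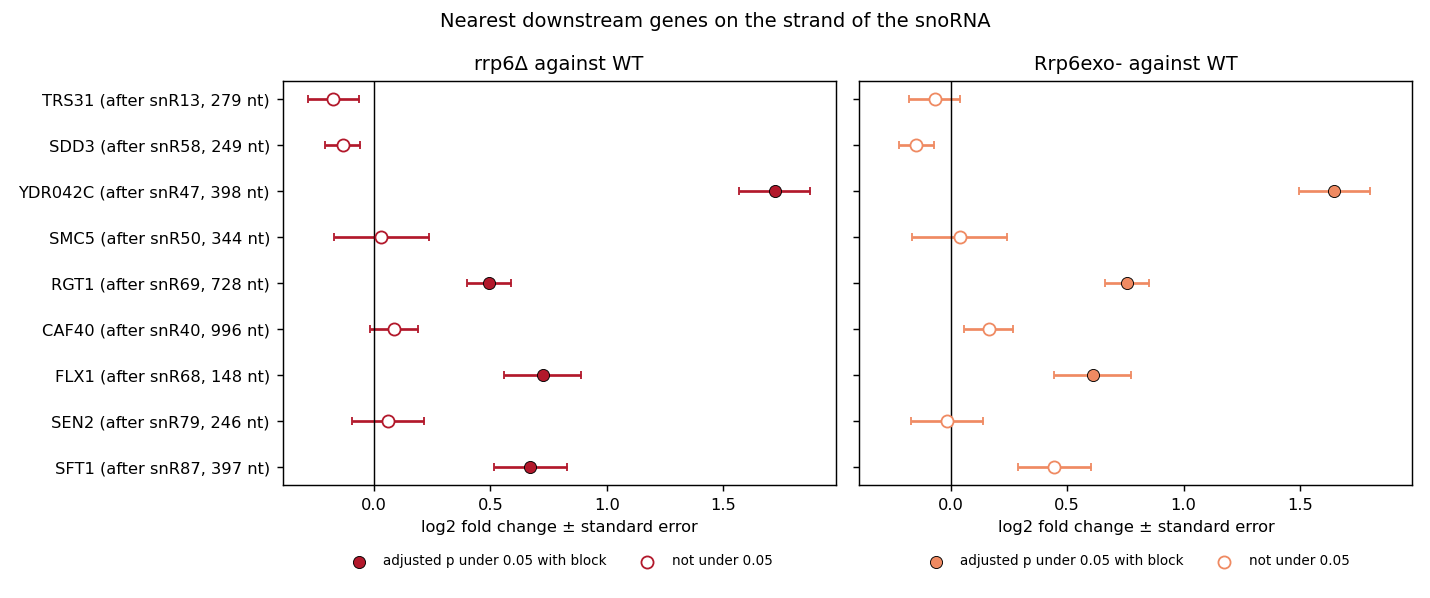
Log2 fold change over WT, with the standard error of the limma fit, of the 9 downstream genes on the strand of their snoRNA, in rrp6Δ (left) and Rrp6exo- (right), with the distance from the snoRNA's 3′ end beside each name and filled points for an adjusted p under 0.05 in the blocked fit. *YDR042C* lies at 1.72 and 1.65, and *TRS31* lies at -0.17 and -0.07.

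Of the 7 upstream neighbours on the same strand, the blocked fit called 1 higher and 1 lower in rrp6Δ over WT. Over all genes these shares were 5.43% and 6.04%. In Rrp6exo- over WT it called 2 higher and 0 lower, beside 5.7% and 7.04% of all genes. *NRG1* (973 nt from snR47) was higher in both mutants in the blocked fit (log2 fold change 0.30 and 0.41, limma adjusted p = 0.037 and 0.0153). *PTM1* (before snR69) was lower in rrp6Δ (-0.28, limma adjusted p = 0.0344) and *REA1* (before snR79) higher in Rrp6exo- (0.35, limma adjusted p = 0.0457), both in the blocked fit. *NME1*, the RNA of RNase MRP that lies 163 nt before snR66, did not follow snR66. It averaged 57615 scaled counts in rrp6Δ, 51621 in Rrp6exo- and 59891 in WT and was not called in any comparison.

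The first 100 nt after the mature 3′ end are shown for the 4 members with a raised downstream gene and for snR13, a stretch in which Nrd1 and Nab3 bind the nascent RNA of such genes. Capitals mark the Nrd1 motifs GTAG and GTAA and the Nab3 motifs TCTT and CTTG, searched on the transcribed sense strand, with overlapping TCTT and CTTG counted separately. The windows are chrIV:541502-541601 (minus strand) for snR47, chrIX:97247-97346 (plus) for snR68, chrXI:364877-364976 (plus) for snR69, chrXI:430930-431029 (minus) for snR87 and chrIV:1403043-1403142 (plus) for snR13.
snR47 downstream: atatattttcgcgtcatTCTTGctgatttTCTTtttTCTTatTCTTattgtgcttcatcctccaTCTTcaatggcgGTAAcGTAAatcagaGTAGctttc
snR68 downstream: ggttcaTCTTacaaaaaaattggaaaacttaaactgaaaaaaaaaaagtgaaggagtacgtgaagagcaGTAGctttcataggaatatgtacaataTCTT
snR69 downstream: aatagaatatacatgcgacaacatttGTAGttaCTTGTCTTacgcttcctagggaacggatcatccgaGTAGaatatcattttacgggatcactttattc
snR87 downstream: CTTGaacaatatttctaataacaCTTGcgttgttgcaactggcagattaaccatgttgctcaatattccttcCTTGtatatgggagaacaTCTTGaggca
snR13 downstream: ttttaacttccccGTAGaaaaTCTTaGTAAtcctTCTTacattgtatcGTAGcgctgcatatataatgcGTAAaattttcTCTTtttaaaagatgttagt

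snR47 held 9 motifs in this window, the most of any member, snR13 held 7, snR87 held 5, snR69 held 4 and snR68 held 3. All 10 members had a Nab3 motif and 9 had both kinds, the exception being snR87 with no Nrd1 motif. Both kinds were present after 56.1% of 66 other snoRNA genes, 30.2% of 275 tRNA genes and 29.6% of 6002 protein-coding genes. The mean number was 5.3 after the members, 3.52 after other snoRNA genes and 1.87 after protein-coding genes. The windows of all classes began at the annotated end of the gene, which need not be the end of its RNA. The other snoRNA genes were not split by how they are made. A match is a description of the letters and not a binding site. snR66, which rose, and snR69, which fell, had 4 motifs each.

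Calls among the genes for the proteins that assemble, terminate and trim these RNAs are given beside those over all genes. In the blocked fit, limma called 5.43% of all genes higher and 6.04% lower in rrp6Δ over WT. In Rrp6exo- over WT it called 5.7% higher and 7.04% lower. Of the 4 core proteins of the C/D particle, *SNU13* was lower in rrp6Δ in the blocked fit (log2 fold change -0.30, limma adjusted p = 0.0344), and none was called in Rrp6exo-. Of 7 assembly factors only *RSA1* was called in the blocked fit, higher in both mutants (0.27 and 0.29, limma adjusted p = 0.0488 and 0.0374). Of 8 termination factors, 3 were higher in rrp6Δ and 4 in Rrp6exo- in the blocked fit and none lower. *NRD1* had the largest change, with mean scaled counts of 19935 in rrp6Δ, 26530 in Rrp6exo- and 12401 in WT (log2 fold change 0.69 and 1.09, limma adjusted p = 0.00518 and 0.000806). *NAB3* (0.34 and 0.35) and *REF2* (0.28 and 0.44) rose in both mutants and *PCF11* (0.28) in Rrp6exo-.

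Of 8 measured processing and cap factors, *RAI1* was higher in both mutants (0.45 and 0.30, limma adjusted p = 0.0193 and 0.0457) and *RNT1*, the RNase III that cleaves snoRNA precursors, in rrp6Δ (0.38, limma adjusted p = 0.0361), all in the blocked fit. Of 17 exosome and TRAMP genes other than *RRP6*, 2 were higher in each mutant and none lower in the blocked fit. The TRAMP subunit gene *AIR2* was called in both (0.50 in rrp6Δ, limma adjusted p = 0.0107), with *RRP45* in rrp6Δ (0.45, limma adjusted p = 0.0471) and *AIR1* in Rrp6exo-. No gene of these 5 lists passed in limma without the block.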

How the data were processed

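Ribosome-depleted total RNA of 6 cultures (3 strains, 2 clones each) was sequenced in paired ends with a stranded kit. The authors aligned reads with STAR to sacCer3, processed them with Picard 1.124, counted them per gene with HTSeq 0.5.3 (R64 annotation) and deposited the counts divided by a DESeq size factor, a signal proportional to reads. The strand setting of the counting is not given in the sources used here. A count per gene does not separate mature snoRNA from extended precursors, and short RNAs are poorly retained by such kits.

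Reads were recovered from the value of 1 read per library (34.2 to 39.5 M). The main test was limma 3.58.1, run in R 4.3.3 on log2(scaled count + 1), with a variance trend and strain as the only term, over all 6 libraries. The lowest summed scaled count was 14.4, so the minimum of 10 removed no gene. Alternatives were pseudocounts of 0.5 and 10, a mean of at least 10 (292 genes removed, snR79 and snR87 among them), rescaling to equal totals or upper quartiles, the replicate block, edgeR 4.0.16 with and without the block, DESeq2 1.42.0 on recovered reads, and each library left out. DESeq2 had no block term. The fits were also run on simulated reads. These had no replicate effect and no change set in genes of low count, so they cannot check the block under pairing or the members with few reads.

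The library names share a letter within each replicate number. The difference of replicate 2 minus 1 correlated across 5985 genes between strains (r = 0.589 for rrp6Δ with Rrp6exo-, 0.733 for rrp6Δ with WT, 0.649 for Rrp6exo- with WT), so the numbers were read as pairing libraries. Genes named are the members, their nearest neighbours, list genes called or at the end of a list, and the 3 nearest profiles. The members and lists were chosen with earlier results of these data known. Intervals of read ratios are exact and cover counting error only.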

Additional observations from a re-analysis of the deposited data

How the results depend on the processing

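Calls of members depended on the replicate block, the test and the scaling. In rrp6Δ over WT the limma count of 1 member became 6 in limma with the replicate block, 6 in edgeR with the replicate block, 5 in DESeq2, 3 after rescaling to the same total and 2 after rescaling to the upper quartile. Leaving out 1 library gave 0 to 1. In Rrp6exo- over WT the count of 0 became 5 in limma with the replicate block, 5 in edgeR with the replicate block, 5 in DESeq2, 3 after the same total and 2 after the upper quartile, and remained 0 without any 1 library. Between the mutants DESeq2 called 1 and the other settings 0. Over all genes the counts without and with the block in limma were 11 and 720 in rrp6Δ over WT, 7 and 800 in Rrp6exo- over WT, and 1 and 2 between the mutants. DESeq2 called 504, 520 and 45 genes in the 3 comparisons, and edgeR with the block 717, 797 and 2. Rescaling to the same total moved the median of all genes to 0.16 in rrp6Δ over WT and 0.12 in Rrp6exo- over WT and called 20 genes higher and 5 lower, and 29 and 8, in place of 7 and 4, and 4 and 3. The upper quartile gave 14 genes higher and 4 lower in Rrp6exo- over WT. Members with no call changed sign in some settings. snR87 in Rrp6exo- over WT was 0.0029 in edgeR and 0.014 in DESeq2. With 1 library left out, snR40 lay between -0.21 and 0.71 (log2) in rrp6Δ over WT. In Rrp6exo- over WT the log2 values ran from -0.12 to 0.13 for snR40, -1.38 to 0.79 for snR50, -0.31 to 1.04 for snR68, -2.86 to 0 for snR79 and -1.30 to 0.74 for snR87. Between the mutants they ran from -0.044 to 0.242 for snR13, -0.21 to 0.71 for snR40 and -0.693 to 0.071 for snR47. The cause of these changes was not tested. Where 1 library of a strain remained, it was taken to vary like the other strains. Depth limited snR58, snR68, snR79 and snR87, which had at most 53 reads in any library.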
